A study of Mus musculus with 12 samples.

Results

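The 10 genes described here are Clock, Per1, Per2, Per3, Cry1, Cry2, Nr1d1, Nr1d2, Dbp and Tef, which encode parts of the circadian clock or its direct output. They were chosen by name, as members of the clock, and all 10 were found among the 21627 protein-coding genes placed on chromosomes 1 to 19 and X. The study profiled mouse embryonic fibroblasts, connective tissue cells cultured from embryos, by Cut & Run, in which a nuclease is tethered by an antibody to its target on chromatin and the DNA it cuts free is sequenced. Cells labelled as Fbxw7 knockout (KO) were set against cells labelled as wild type (WT), with 2 libraries for each of 3 antibodies and each genotype, 12 in all. The antibodies were against MLL4 (the methyltransferase encoded by Kmt2d), H3K4me1 and H3K4me3. The groups were thus KO and WT fibroblasts for each antibody, all grown in the same serum-containing medium. Not stated in the labels are the deleted part of Fbxw7, whether the KO cells are 1 line, whether paired libraries derive from different cultures or embryos, and the time of day or any synchronisation of the cells.

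The mammalian clock is a loop in which CLOCK and BMAL1 bind E-boxes and switch on the Per and Cry genes, whose proteins return to the nucleus and block CLOCK and BMAL1. A second loop runs through Nr1d1 and Nr1d2, nuclear receptors that repress through RORE elements, and a set of basic leucine zipper factors that includes DBP and TEF carries the rhythm to further genes through D-boxes. Fibroblasts hold this clock in culture. FBXW7 is the substrate-binding subunit of a ubiquitin ligase, and the Nr1d1 protein is one of its known substrates. H3K4me3 marks the starts of active genes, and H3K4me1 marks enhancers and the flanks of active starts.

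The authors' peak lists were read for the 8 histone libraries and the 4 MLL4 libraries. The H3K4me3 libraries held 5519477 and 5938102 fragments (KO) and 11319701 and 6185767 (WT) after duplicate filtering, and gave 10397 and 11281 peaks (KO) and 17460 and 16078 (WT). The median H3K4me3 peak was 540 and 579 bp long in KO libraries and 1218 and 1054 bp in WT libraries, so fewer and shorter peaks were a property of the whole KO lists. For H3K4me1 there were 59908 and 53120 peaks in KO libraries and 62065 and 56616 in WT libraries. All 8 fibroblast markers examined (such as Col1a1, Thy1 and Vim) had an H3K4me3 peak in both WT libraries, and 6 and 5 of them had one in the KO libraries. Of 10 markers of pluripotent, blood, epithelial, endothelial and neural cells, 0 and 0 had a peak in KO libraries and 2 and 1 in WT libraries, and 8 had none in any library. A peak that is missing from a list did not pass the authors' q cutoff in that library, which does not show that the mark was absent.

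All 10 clock genes had an H3K4me3 peak over the gene or its 1 kb flanks in both WT libraries, and at all 10 the peaks covered fewer bases in each KO library than in each WT library. By the looser rule of a peak in at least 1 library, which all 10 met, 61.4% of all protein-coding genes had one. Clock, Cry1, Cry2, Nr1d1, Dbp and Tef had a peak in all 4 libraries. Per1 and Nr1d2 lacked one in KO replicate 1, Per3 lacked one in KO replicate 2, and Per2 lacked one in both KO libraries. Fewer covered bases in both KO libraries was also what 93.5% of the 13272 protein-coding genes with any H3K4me3 peak showed, so the 10 of 10 lies near the background of the lists; more covered bases in both KO libraries was found at 0 of 10 and at 0.0301%. A peak in all 4 libraries was found at 6 of the 10 genes and 68.1% of all genes with a peak. A peak in both WT libraries and neither KO library was found at 1 of 10 and 12.6%. No gene of either set had H3K4me3 in both KO libraries and neither WT library. The median log2 ratio of KO to WT covered bases, with 100 bases added to both, was -2.13 over the 10 clock genes and -1.32 over all genes with a peak. For each of the 10 genes an exact two-sided permutation test over the 6 assignments of the 4 libraries gave p = 0.333, which is the smallest value that 2 libraries against 2 can reach, so none of these differences passed a test. These p-values measure the spread between libraries that may be technical replicates, and in bulk chromatin fewer cells with a mark and less of the mark per cell cannot be told apart.

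**Figure D1:**
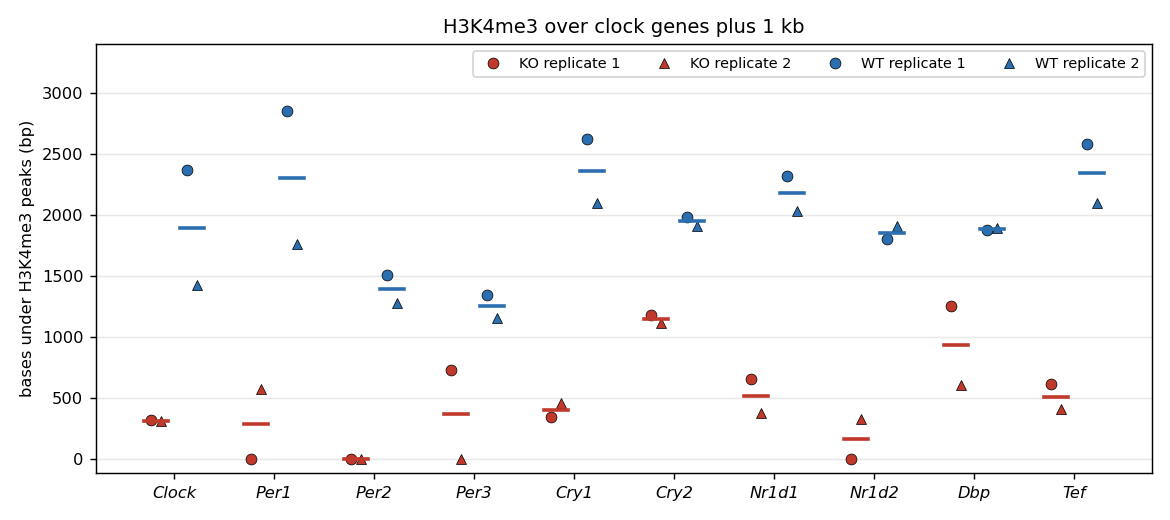
Bases under H3K4me3 peaks (vertical axis, bp) over each of the 10 clock genes plus 1 kb, with 1 point per library and KO left of WT. Every KO point lies below both WT points of its gene, and Per2 sits at 0 in both KO libraries.

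CLOCK is the activating partner of BMAL1. Its gene lies on chromosome 5 (76209868 to 76305603, reverse strand, 3 listed starts near the higher coordinate). H3K4me3 peaks covered 317 and 313 bases in KO libraries and 2367 and 1422 bases in WT libraries, a mean of 315 ± 2.83 against 1895 ± 668 bases (SD, n = 2 each). The WT replicate 1 peak was a single block from 76303123 to 76305489 that spanned all 3 starts, and WT replicate 2 had the same stretch as 2 peaks of 860 and 562 bp. The KO libraries had a short peak at different ends of it, in KO replicate 1 from -491 to -175 bp of the start at 76303502 and in KO replicate 2 from -658 to -346 bp of the start at 76304792 (negative is upstream). At the summit of the most significant peak, the authors' pileup (the number of fragments over the summit), scaled here per 1000000 fragments of the library, was 2.72 and 2.86 in KO libraries and 10.2 and 8.89 in WT libraries. The KO to WT ratio of the means was 0.293.

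The 3 period genes encode the repressors that pair with cryptochromes. Per1 (chromosome 11, 69095108 to 69109965, forward strand, starts listed at 69098949 and 69100152) had 0 and 574 covered bases in KO libraries and 2850 and 1760 in WT libraries. Its strongest H3K4me3 was not at the listed starts but near the outer end of the gene in the annotation table, at 69095220 to 69096469 in WT replicate 1, which is -3729 to -2480 bp from the first start. That site had a −log10 q of 5.82 in KO replicate 2 and no peak in KO replicate 1, against 30.5 and 11.3 in WT libraries. A second region at 69099011 to 69100222, which ends just beyond the second start, was present in the WT libraries alone, with −log10 q of 15.3 and 4.04. The 1 KO peak at Per1 was thus the distal upstream one. WT replicate 1 alone had a further peak beyond the far end of the gene, at 69110578 to 69111129 (−log10 q 10.5). Its part inside the 1 kb flank is counted in the 2850 bases.

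Per2 (chromosome 1, 91415977 to 91459351) had 0 and 0 covered bases in KO libraries, against 1504 and 1281 in WT libraries. It was the only one of the 10 genes with no H3K4me3 peak in either KO library. Its WT peaks lay over the end with the higher coordinate, at 91458439 to 91459942 and 91458410 to 91459690, and were the weakest of the 10 genes by −log10 q in both WT libraries (29.7 and 9.28). When each list was shortened to its best 10397 peaks, the length of the shortest, Per2 had a peak in WT replicate 1 and none in WT replicate 2. Per3 (chromosome 4, 150997018 to 151044707, reverse strand) had 731 and 0 covered bases in KO libraries and 1346 and 1156 in WT libraries. Its peaks began close to the start at 151044665 and ran into the gene, to 897 bp downstream in KO replicate 1 and to 1304 and 1225 bp in WT libraries. The neighbour Gm38529 begins at 151044853, within 1 kb of these peaks, so Per3 H3K4me3 cannot be told apart from that of its neighbour.

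Cryptochromes are the repressors that bind CLOCK and BMAL1 directly. At Cry1 (chromosome 10, 85131700 to 85185054, reverse strand) H3K4me3 peaks covered 346 and 456 bases in KO libraries and 2623 and 2099 in WT libraries. The WT libraries had a pair of peaks, one over the start (85184667 to 85185745) and one inside the gene (85183346 to 85184410). WT replicate 1 had a further, weaker peak deep inside the gene (85161668 to 85162147, 480 bp, −log10 q 6.87), on the strongest H3K4me1 site of the gene, and the other 3 libraries had none there. The inner site was present in all 4 libraries, with −log10 q of 12.7 and 12.4 in KO libraries and 56.8 and 31.0 in WT libraries. At the site over the start the WT libraries alone had a peak, with −log10 q of 51.6 and 16.52. The inner peak was the most significant H3K4me3 peak of the 10 genes in both KO lists, where it ranked above 95.1% and 91.1% of all peaks of its own list. Its scaled pileup was 4.71 and 4.38 in KO libraries and 9.98 and 10.02 in WT libraries, a ratio of 0.454 that is the highest of the 6 genes with a peak in all 4 libraries. The mean H3K4me3 pileup of peaks on chromosome 10 was 1.20 and 1.24 times that of the other autosomes in KO libraries. In WT libraries it was 0.981 and 1.003 times. The part of this chromosome-wide difference in the Cry1 rank and ratio was not tested.

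Cry2 (chromosome 2, 92403646 to 92434085, reverse strand) had 1179 and 1116 covered bases in KO libraries and 1983 and 1911 in WT libraries, the smallest relative gap of the 10 genes (log2 ratio -0.71). In every library this was a single peak that lay over or just inside the start at 92434069. Width and height differed here. The scaled pileup was 3.62 and 3.20 in KO libraries and 13.4 and 10.8 in WT libraries, a ratio of 0.281 that is the lowest of the 6 genes with a peak in all 4 libraries.

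Nr1d1 encodes REV-ERBα, the nuclear receptor that FBXW7 is known to bind, and lies on chromosome 11 (98767932 to 98775377, reverse strand). H3K4me3 peaks covered 653 and 375 bases in KO libraries and 2322 and 2031 in WT libraries. The main site, 98774148 to 98775308, held a peak in all 4 libraries, with −log10 q of 6.32 and 7.22 in KO libraries and 34.8 and 14.9 in WT libraries. The peak was 389 and 375 bp long in KO libraries, against 1120 and 1117 bp in WT libraries. A second site further into the gene, 98772523 to 98773724, held a peak in KO replicate 1 (−log10 q 3.52) and in both WT libraries (20.3 and 10.9), and none in KO replicate 2. All of these peaks lay downstream of the start at 98775377. The neighbouring gene Thra overlaps the far end of Nr1d1 but had no peak at its end inside this window.

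Nr1d2, which encodes the related receptor REV-ERBβ (chromosome 14, 18204056 to 18239106, reverse strand), had 0 and 326 covered bases in KO libraries and 1802 and 1909 in WT libraries. Its KO replicate 2 peak had the lowest −log10 q of the 10 genes' strongest KO peaks, 3.30, against 35.9 and 10.7 in WT libraries. It lay 922 to 1247 bp inside the gene, while in each WT library a peak ran across the start at 18239106.

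DBP and TEF are the D-box activators. Dbp (chromosome 7, 45705100 to 45710203, forward strand) had 1252 and 609 covered bases in KO libraries and 1876 and 1892 in WT libraries, with its main peak over or just downstream of the start at 45705247 in all 4. The scaled pileup was 3.62 and 3.03 in KO libraries and 11.0 and 10.02 in WT libraries. Car11 has an end inside the Dbp window with an H3K4me3 peak within 1 kb of it in 4 libraries, so the Dbp total cannot be told apart from H3K4me3 of Car11. Sphk2 also ends inside the window and had H3K4me3 near that end in 0 libraries and H3K4me1 in 2. Tef (chromosome 15, 81802673 to 81826863, forward strand) had 613 and 406 covered bases in KO libraries and 2579 and 2099 in WT libraries. Its strongest peak in every library was at the second listed start, 81811414, and not at the first, with −log10 q of 8.73 and 10.4 in KO libraries and 66.4 and 31.3 in WT libraries. A site upstream of that start, 81810417 to 81810875, had a peak in the WT libraries alone, with −log10 q of 17.2 and 13.1. The first start had a short peak nearby in KO replicate 1 (248 bp) and in both WT libraries (668 and 355 bp).

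**Figure D2:**
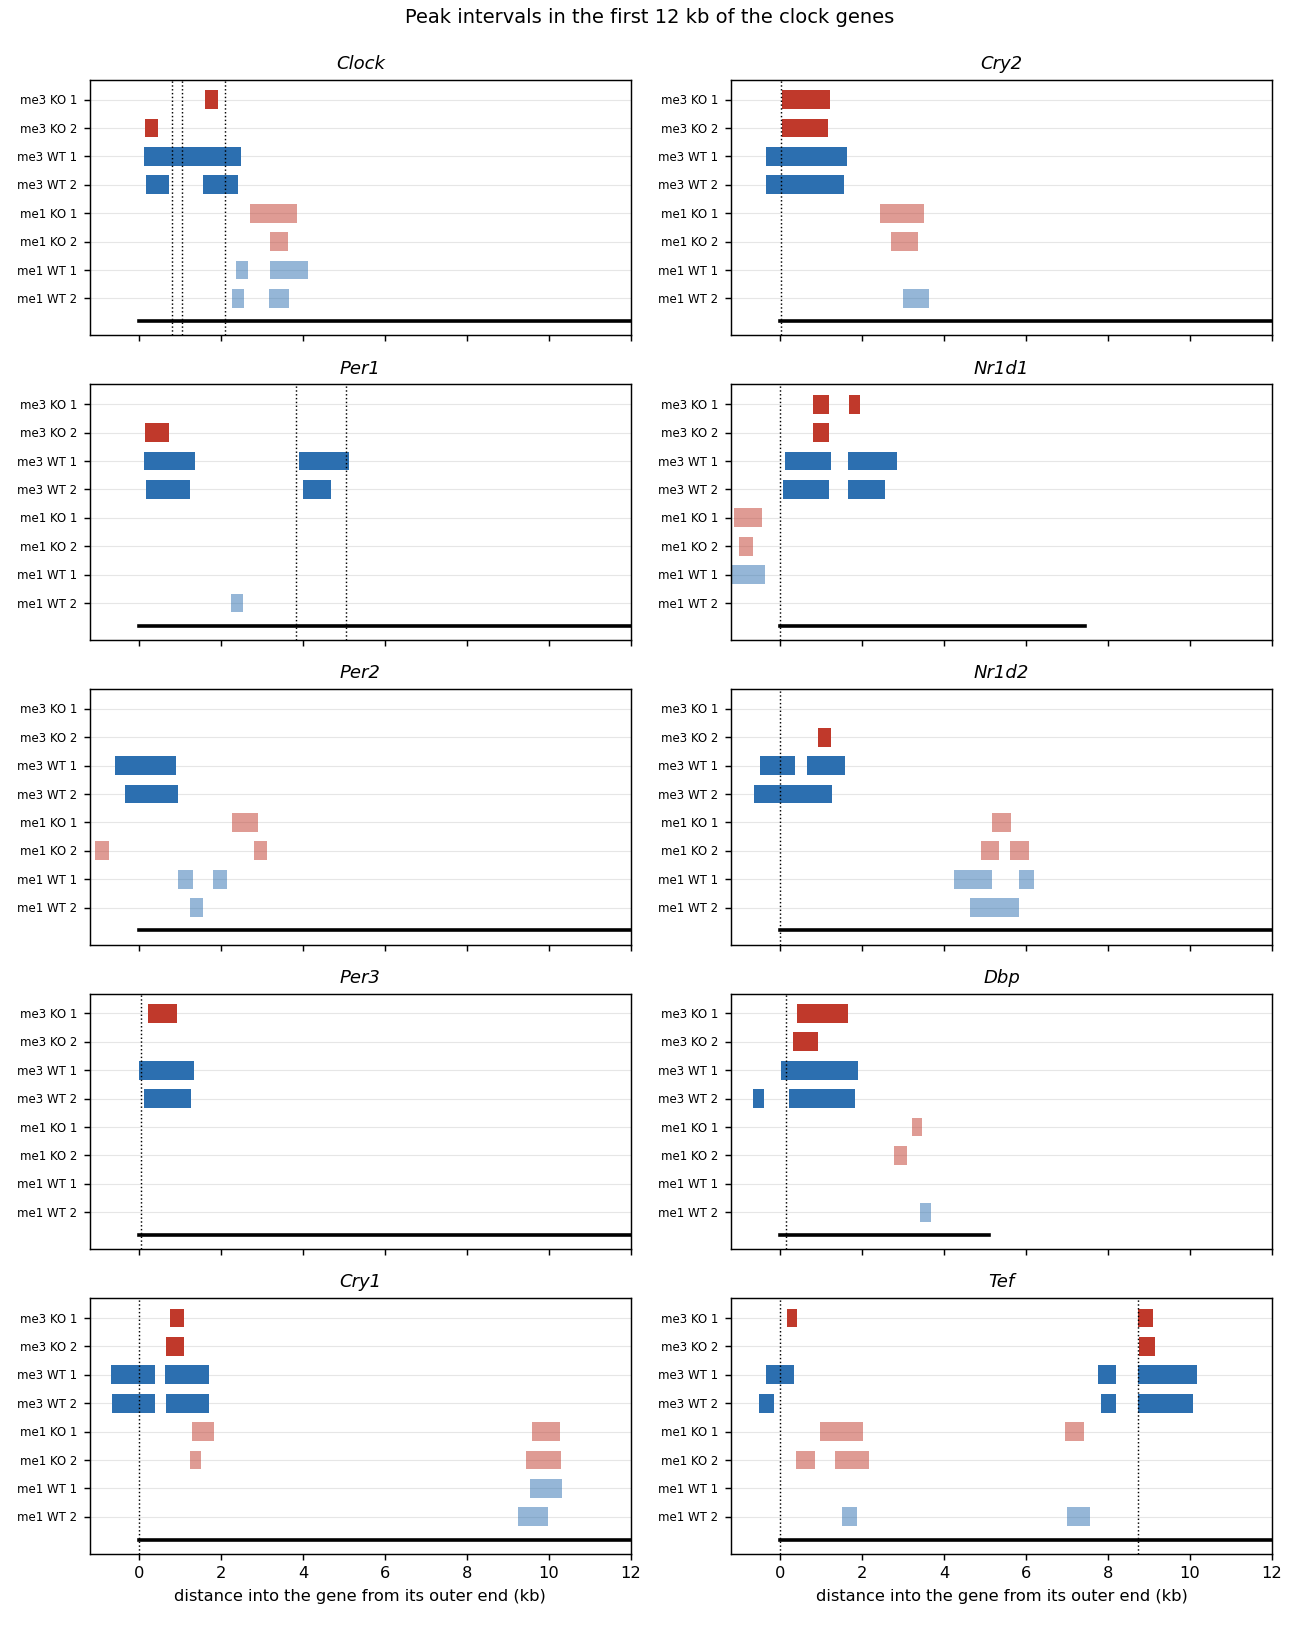
H3K4me3 peaks (upper rows) and H3K4me1 peaks (lower rows, paler) over the first part of each clock gene, by library, with KO rows above WT rows for each mark. Distance is in kb along the gene's strand from the outer end of the gene, which for Per2 is the end with the higher coordinate. Dotted lines are the listed starts, and the black bar is the gene. KO H3K4me3 peaks are short pieces inside the WT H3K4me3 peaks, apart from 79 bases at Tef. The Cry1 H3K4me3 peak over the start and the Per1 H3K4me3 peak at the listed starts are in WT rows alone.

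Seen base by base, KO peaks were pieces of WT peaks with an exception at Tef. Over the 10 genes 16631 bases were under H3K4me3 peaks in both WT libraries. Of these, 6308 were also under a peak in at least 1 KO library and 10323 in none. Outside both WT peak sets there were 79 KO bases, all at Tef.

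The height of the strongest peak differed as well as its width. At all 6 genes with a peak in every library the scaled pileup was lower in each KO library than in each WT library, as it was at 99.6% of the 9038 such genes. The ratio ran from 0.281 to 0.454 with a median of 0.324, against a median of 0.364 over all such genes. The authors' fold enrichment over local background at the strongest peaks had a median of 5.21 and 5.19 in KO libraries and 6.92 and 6.02 in WT libraries. These medians cover the genes with a peak in each library, 7 and 8 in KO libraries and 10 and 10 in WT libraries, so the gene sets differ. Duplicates were limited to 2 fragments per position in WT replicate 1 and to 1 in the other H3K4me3 libraries, per the file headers, and the share this has in the pileup was not tested. With every list shortened to its best 10397 peaks, 7 of the 10 genes had fewer covered bases in each KO library than in each WT library, against 83.9% of genes. The exceptions were Per1, Per2 and Nr1d2, at which WT replicate 2 then had no peak. At Per1 the shortened lists gave 0 and 574 bases in KO libraries and 1250 and 0 in WT libraries. In these lists 0 clock genes had H3K4me3 in both WT libraries and neither KO library (3.46% of genes). The median log2 ratio was then -1.51 over the clock genes and -1.03 over all genes.

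**Figure D3:**
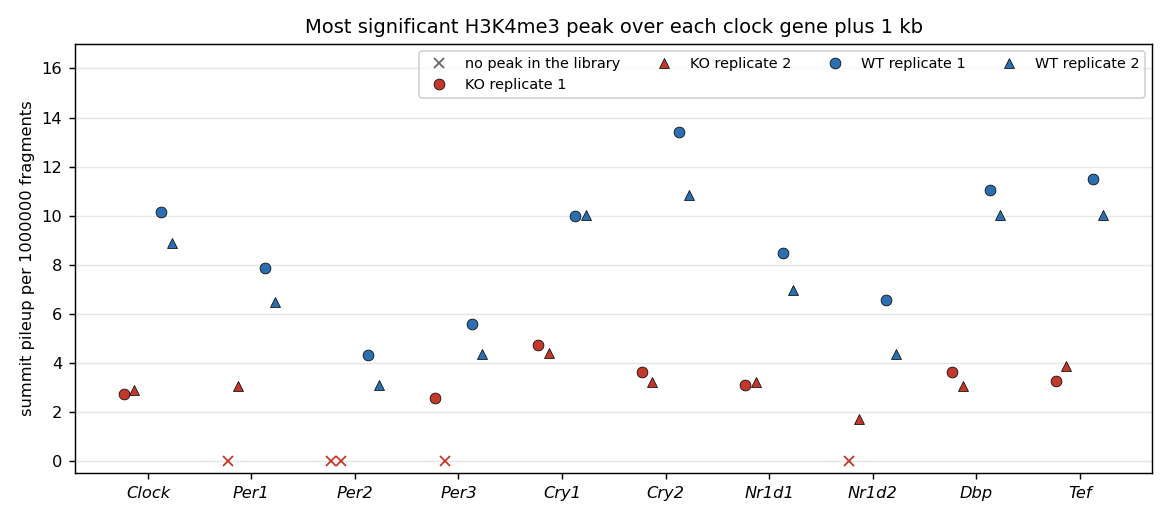
Pileup of the most significant H3K4me3 peak of each clock gene, in fragments over the summit per 1000000 fragments of the library, with 1 point per library, KO left of WT and a cross where the library had no peak. KO values lie between 1.68 and 4.71 and WT values between 3.07 and 13.4, and within each gene every KO point lies below the WT points.

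Promoter windows from 250 bases before to 50 bases after a start were available in RefSeq for 13 starts of 9 of the genes. They are rich in G and C, with a median of 64.7% against 52.7% over the 32817 windows of the table. H3K4me3 peaks reached into 3 and 2 of the 13 windows in KO libraries and 11 and 7 in WT libraries, and over the table into 13.9% and 15.9% (KO) and 37.1% and 32.5% (WT). Of the 11 windows with H3K4me3 in any library, 4 had it in the WT libraries alone, against 34.9% over the table. H3K4me1 peaks reached into 0 of the 13 in every library. The palindromic E-box CACGTG stood in 4 windows of 3 genes (Per1, Cry1 and Tef) and in 7.15% of all windows. The D-box TTATGNAA, searched on both strands, stood in 2 windows of 2 genes (Per1 and Per3) and in 3.39% of all windows. The RORE core (TAGGTCA or TGGGTCA, both strands) stood in 0 of the 13 and 6.46% of all windows, and the palindromic cAMP response element TGACGTCA in 0 and 1.79%. None of these motifs overlapped another in the 13 windows. The 4 windows below come from the genes with an E-box or D-box match. They are shown because H3K4me3 differed over or beside them and because they hold the letters that the clock's own activators recognise. For Tef the window of the second start is shown, where its strongest peak lies. The window of its first start, not shown, also holds an E-box, which begins at -127. H3K4me3 covered 0 and 0 of the bases of that window in KO libraries and 300 and 98 in WT libraries. They are given on the gene's strand, 5′ to 3′, from RefSeq on GRCm38.p6 (the coordinates of mm10), with the motif in capitals.
Cry1, chr10:85185005-85185304, reverse strand: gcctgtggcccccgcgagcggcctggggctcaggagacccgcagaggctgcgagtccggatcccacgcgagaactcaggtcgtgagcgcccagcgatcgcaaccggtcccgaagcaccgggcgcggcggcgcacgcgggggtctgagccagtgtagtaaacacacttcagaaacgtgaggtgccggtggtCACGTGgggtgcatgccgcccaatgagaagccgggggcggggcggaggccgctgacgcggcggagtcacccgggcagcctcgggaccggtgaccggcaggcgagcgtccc
Per1, chr11:69098699-69098998, forward strand: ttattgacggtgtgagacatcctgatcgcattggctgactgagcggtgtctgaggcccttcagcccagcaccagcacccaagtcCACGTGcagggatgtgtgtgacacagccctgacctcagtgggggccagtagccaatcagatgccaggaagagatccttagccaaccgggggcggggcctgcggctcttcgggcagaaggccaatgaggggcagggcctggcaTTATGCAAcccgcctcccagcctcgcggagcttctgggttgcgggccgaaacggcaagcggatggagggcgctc
Per3, chr4:151044616-151044915, reverse strand: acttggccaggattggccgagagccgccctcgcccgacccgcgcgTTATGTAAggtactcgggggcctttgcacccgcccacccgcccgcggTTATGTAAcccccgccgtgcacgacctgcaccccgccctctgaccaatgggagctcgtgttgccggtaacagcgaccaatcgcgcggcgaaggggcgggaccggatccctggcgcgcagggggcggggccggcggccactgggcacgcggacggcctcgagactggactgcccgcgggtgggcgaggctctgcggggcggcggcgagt
Tef, chr15:81811164-81811463, forward strand: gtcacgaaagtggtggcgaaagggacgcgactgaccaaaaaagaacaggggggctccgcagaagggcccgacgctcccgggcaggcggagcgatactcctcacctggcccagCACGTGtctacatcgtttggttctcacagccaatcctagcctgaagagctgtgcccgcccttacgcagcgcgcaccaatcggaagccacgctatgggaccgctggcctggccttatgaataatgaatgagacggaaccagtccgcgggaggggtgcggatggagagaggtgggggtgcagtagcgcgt

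In the Cry1 window the E-box begins at -60 from the start. H3K4me3 covered 0 and 0 of its 300 bases in KO libraries and 300 and 300 in WT libraries, while the peak present in every library lay further inside the gene. In the Per1 window the E-box begins at -166 and a D-box at -24, and H3K4me3 covered 0 bases in all 4 libraries, since the WT-only peak of this gene begins just downstream of it. The Per3 window has D-boxes that begin at -205 and -158, and 0 and 0 of its bases were covered in KO libraries against 91 and 0 in WT libraries. In the Tef window the E-box begins at -138, and the peak around this start covered 63 and 40 bases in KO libraries and 73 and 66 in WT libraries. These matches are letters in a window and were not tested for binding.

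H3K4me1 was found at 9 of the 10 genes, all but Per3, against 59.1% of all protein-coding genes. Of its summits in the gene windows with a listed start, 11 of 13 and 13 of 14 were downstream of the nearest such start in KO libraries. In WT libraries 9 of 10 and 14 of 16 were. The windows reach only 1 kb beyond the gene and so hold mostly sequence downstream of a start. These shares therefore cannot show a preference for the inside of the genes. Each KO library had fewer H3K4me1 bases than each WT library at Clock and Nr1d2 (2 of 10, background 26.0% of the 12778 genes with a peak) and more at Cry1, Cry2 and Tef (3 of 10, background 12.4%). The exact two-sided permutation p was 0.333 for each of these 5. Cry1, Clock, Per2 and Nr1d2 had an H3K4me1 peak in every library (4 of 10, background 51.8%). A peak in both libraries of a single genotype and neither of the other was found at 0 genes (background 4.7% for WT and 2.75% for KO). Per1 had a peak in WT replicate 2 alone. The median log2 ratio of KO to WT covered bases was 0.38 over the clock genes with a peak and -0.20 over all such genes.

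Clock had 1976 and 1519 H3K4me1 bases in KO libraries and 2719 and 3466 in WT libraries. A site near the far end of the gene, 76214630 to 76215883, was present in all 4 libraries with −log10 q of 8.17 and 6.35 (KO) and 7.79 and 7.26 (WT). The sites at 76229313 to 76230058 and at 76302939 to 76303323 had a peak in the WT libraries alone. Nr1d2 had 926 and 1468 bases in KO libraries and 2371 and 2449 in WT libraries. Its site at the far end of the gene, 18204078 to 18205204, had −log10 q of 4.77 and 5.79 in KO libraries and 10.9 and 9.87 in WT libraries.

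Cry1 had 3464 and 2868 H3K4me1 bases in KO libraries and 2248 and 1805 in WT libraries. Its strongest site, 85161169 to 85162981, lies inside the gene about 23 kb from the start and had −log10 q of 16.3 and 16.6 in KO libraries and 12.3 and 12.3 in WT libraries. Within their own lists these peaks ranked above 99.2% and 99.6% (KO) and 94.3% and 95.5% (WT) of all H3K4me1 peaks. A further site at 85183214 to 85183810 had H3K4me1 in the KO libraries alone (−log10 q 4.38 and 5.41). It overlaps the inner H3K4me3 site of the WT libraries: 420 and 266 of the bases that had H3K4me3 in both WT libraries and in no KO library were under H3K4me1 in KO libraries, against 0 and 0 in WT libraries. Of the other 9 genes, such bases were under H3K4me1 at Clock in WT libraries (0 and 0 bases in KO libraries, 60 and 146 in WT libraries) and at no other gene. Cry1 is on chromosome 10, which held 7.33% and 7.55% of H3K4me1 peaks in KO libraries and 5.94% and 5.96% in WT libraries. The mean H3K4me1 pileup on this chromosome was 1.16 and 1.16 times that of the other autosomes in KO libraries and 1.01 and 1.00 times in WT libraries, and 28.5% of its genes with a peak had more covered bases in both KO libraries. The part of this chromosome-wide difference in the Cry1 values was not tested.

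**Figure D4:**
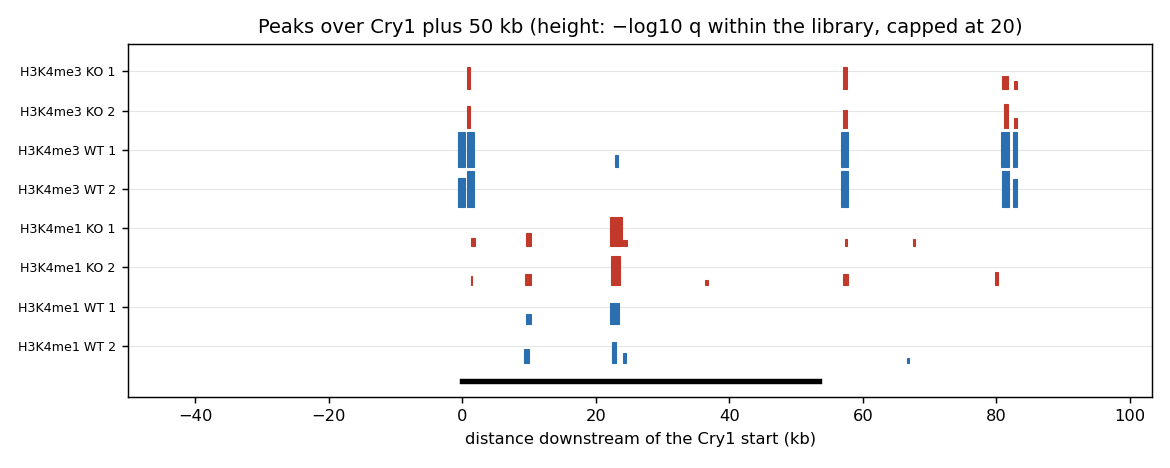
H3K4me3 and H3K4me1 peaks along Cry1 and 50 kb on either side, by library with KO rows above WT rows, as distance in kb from the start along the gene's strand; the height of a block is its −log10 q, up to the maximum given in the title. The H3K4me3 block over the start is in WT rows alone, and the H3K4me1 block about 23 kb inside the gene is in all 4 rows.

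Cry2 had 1072 and 665 H3K4me1 bases in KO libraries and 0 and 617 in WT libraries, all from 1 site about 3 kb inside the gene. Tef had 1509 and 1283 bases in KO libraries and 0 and 929 in WT libraries, from sites downstream of the first start and upstream of the second. At both genes WT replicate 1 had no peak, while WT replicate 2 had 1 at Cry2 and 2 at Tef. The genotypes overlapped at the remaining genes. Per2 had 1075 and 1390 bases in KO libraries and 2464 and 1204 in WT libraries, Nr1d1 had 550 and 345 in KO libraries and 639 and 0 in WT libraries, and Dbp had 244 and 303 in KO libraries and 0 and 277 in WT libraries. At Nr1d1 these bases belong to a site just upstream of the start, 98775739 to 98777080, that had a peak in all 4 libraries (−log10 q 8.24 and 3.003 in KO libraries, 6.39 and 3.79 in WT libraries), the last of them outside the 1 kb flank. Per1 had 0 and 0 bases in KO libraries and 0 and 285 in WT libraries, and Per3 had 0 in all 4 libraries.

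**Figure D5:**
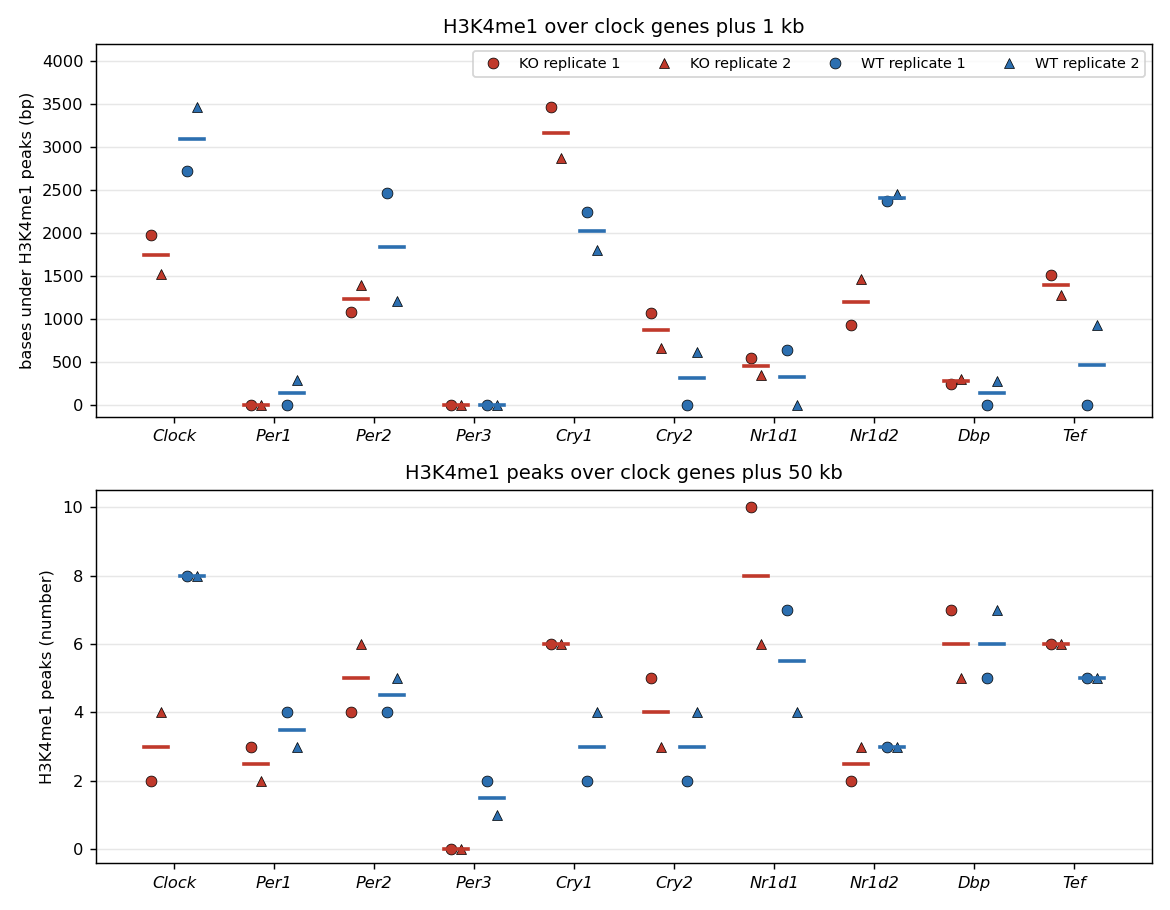
H3K4me1 at the 10 clock genes, as bases under peaks over the gene plus 1 kb (bp) and as the number of peaks within 50 kb of the gene, with 1 point per library and KO left of WT. Clock and Nr1d2 have fewer covered bases in both KO libraries, Cry1, Cry2 and Tef have more, and the other genes overlap.

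Within 50 kb of the gene, H3K4me1 peaks were fewer in both KO libraries at Clock (2 and 4 in KO libraries, 8 and 8 in WT libraries) and at Per3 (0 and 0 in KO libraries, 2 and 1 in WT libraries). No Per3 site was shared by the WT libraries, and none lay over the gene or its 1 kb flanks. Those at 151051298 to 151051889 (WT replicate 1) and 151056313 to 151056844 (WT replicate 2) lay over or within 1 kb of the neighbours Gm38529 and Vamp3. H3K4me1 peaks were more numerous at Cry1 (6 and 6 in KO libraries, 2 and 4 in WT libraries) and at Tef (6 and 6 in KO libraries, 5 and 5 in WT libraries). Fewer peaks in both KO libraries was found at 19.5% of the 18416 genes with a peak in this window and more at 8.51%, or 26.4% on chromosome 10. The exact two-sided permutation p was again 0.333 at these 4 genes. The other 6 genes overlapped between genotypes: Per1 had 3 and 2 peaks in KO libraries and 4 and 3 in WT libraries, Per2 had 4 and 6 in KO libraries and 4 and 5 in WT libraries, and Cry2 had 5 and 3 in KO libraries and 2 and 4 in WT libraries. Nr1d1 had 10 and 6 in KO libraries and 7 and 4 in WT libraries, Nr1d2 had 2 and 3 in KO libraries and 3 and 3 in WT libraries, and Dbp had 7 and 5 in KO libraries and 5 and 7 in WT libraries.

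Merging the lists wherever peaks touched gave 77 H3K4me1 regions within 50 kb of the 10 genes. Of these, 24.7% were in all 4 libraries, 5.19% in both WT libraries alone and 5.19% in both KO libraries alone. Genome-wide these shares were 28.7%, 6.63% and 5.37%. The largest part near the clock genes, 64.9%, was in other combinations, such as a single library. The 4 KO-only regions were 2 around Cry1, 1 at Per2 and 1 near Tef. Of the 55 H3K4me3 regions in the same windows, 45.5% were in all 4 libraries, 23.6% in both WT libraries alone and 0 in both KO libraries alone. Genome-wide these were 46.8%, 21.7% and 0.056%. Other combinations made up 30.9% of the 55. Both sets thus lay near the background of the lists. Counted as peaks, H3K4me3 within 50 kb was fewer in both KO libraries at 7 of the 10 genes (37.9% of the 16788 genes with such a peak) and more at 0 (1.88%). The 7 were the 3 period genes, Cry1, Nr1d1, Dbp and Tef; Per1 had 7 and 7 peaks in KO libraries and 14 and 11 in WT libraries, and Nr1d1 had 6 and 7 in KO libraries and 10 and 11 in WT libraries. Clock had 2 and 2 in KO libraries and 2 and 3 in WT libraries, Cry2 had 4 in every library, and Nr1d2 had 1 and 2 in KO libraries and 3 and 2 in WT libraries. These counts include H3K4me3 at neighbouring genes. Of 14 merged H3K4me3 regions around Per1, 3 lay over the gene plus 1 kb, and of 10 around Nr1d1, 2 did. Most of the others lay over or within 1 kb of other genes, such as Vamp2 and Hes7 or Thra and Msl1. The share of all genes was not matched for the number of genes nearby.

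MLL4, which deposits H3K4me1 at enhancers, had 0 peaks within 50 kb or 100 kb of any clock gene in all 4 libraries. The MLL4 lists were short, with 49 and 40 peaks in KO libraries and 60 and 69 in WT libraries, and the nearest peak to any of the genes lay 687400 bp from Dbp in WT replicate 1. Whether MLL4 was present below the peak cutoff cannot be read from these lists.

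Another 20 clock genes, such as Arntl (which encodes BMAL1), Npas2, the Ror receptors, Nfil3, Hlf and the casein kinase 1 genes, were examined as a list. H3K4me3 was found at 19 of them, in all 4 libraries at 11 and in WT libraries alone at 1, Nampt (0 and 0 covered bases in KO libraries, 2031 and 1452 in WT libraries), which encodes the enzyme that makes NMN for NAD synthesis. All 19 had fewer covered bases in both KO libraries, near the 93.5% of all genes with a peak, with a median log2 ratio of -1.86 against -1.32 over all such genes. Arntl had 0 and 656 H3K4me3 bases in KO libraries and 2035 and 1983 in WT libraries. For H3K4me1, 4 of the 17 with a peak had fewer bases in both KO libraries (26.0% of all genes with a peak) and 1 had more (12.4% of all such genes). That gene was Csnk1e, which encodes a casein kinase that phosphorylates PER proteins (1651 and 1551 in KO libraries, 609 and 970 in WT libraries).

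The genes whose covered bases over the 8 histone libraries lay closest to those of Nr1d1, by the distance between their log2 values, were Phf6 (0.61), Ddx60 (0.76) and Amd1 (0.85). Phf6, for example, had 493 and 493 H3K4me3 bases in KO libraries and 2399 and 1913 in WT libraries.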

How the data were processed

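Sample titles gave the groups and replicate numbers. Per the submitters' processing notes the build was mm10 and Bowtie2, SAMtools 1.5, bedtools, MACS2, deepTools and HOMER 4.10 were used, each without a stated role. The authors called narrow peaks in each library separately with MACS2 2.1.0.20150731 at a q cutoff of 0.01 with no control library, per the file headers, so depth can affect which weak sites pass. The deposited lists give each peak's pileup signal (fragments over the summit, not scaled), −log10 p and q and fold enrichment ratio, which are the authors' own values. They served to describe and filter peaks inside each list, and the pileup signal was also scaled per 1000000 fragments.

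Peaks were joined to gene positions of a RefSeq table of GRCm38.p6, with starts and strands from the RefSeq promoter table, in Python 3.11.15 with numpy 2.4.6 and pandas 2.3.3. Per gene and library the bases under peaks over the gene plus 1 kb and the peaks within 50 kb were counted. Genotypes were compared by exact two-sided permutation tests over libraries, and counts of genes were set beside those of all protein-coding genes. The counting was tested on simulated peaks. Members and lists were chosen with earlier results of these data known. All 10 members are named; of the other clock genes, those with H3K4me3 in 1 genotype alone, with Arntl and Csnk1e named after their values were seen. Likeness to Nr1d1 was the distance of log2 covered bases. Alternatives were stricter q, equal list length, other windows, left-out libraries and a replicate block.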

Additional observations from a re-analysis of the deposited data

How the results depend on the processing

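H3K4me3 covered bases kept a KO value below the WT value in 119 of 119 single-gene alternatives. Those with a replicate block are among the 119 and keep the main difference by construction. The median difference over the clock genes, -1621 bases, was -1803 at −log10 q of at least 10, -809.5 at equal list length and -1205 with no flank. It was -949.5 within 1 kb of the start, over the 9 genes with a listed start. With 1 library left out it ran from -1723.5 to -1377. The number of clock genes with H3K4me3 in every WT library used and no KO library used was 1. It was 2 at −log10 q of at least 5, 7 at 10 and 0 at equal list length. With 1 library left out this number ran from 1 to 3 (2 without KO replicate 1, 3 without KO replicate 2). The 10 genes with fewer H3K4me3 bases in both KO libraries became 9 at −log10 q of at least 10 and 7 at equal list length, and stayed at 10 with each library left out. Within 1 kb of the start they were 9 of the 9 genes scored. Per2 has no listed start and was left out of that setting for both marks. For H3K4me1 covered bases the median difference, 64, was -71.25 with 2 kb flanks and ran from 0 to 52.75 with 1 library left out. The 2 genes with fewer H3K4me1 bases became 0 at −log10 q of at least 10 and 0 within 1 kb of the start, and ran from 2 to 4 with 1 library left out (4 without WT replicate 2); the 3 with more became 0 at −log10 q of at least 10 and 1 within 1 kb of the start, and ran from 3 to 4. The median difference in H3K4me1 peaks within 50 kb, 0.25, was 0.75 within 25 kb, 0 within 100 kb and -0.25 at −log10 q of at least 5, and ran from -0.25 (without WT replicate 1) to 1.0 (without WT replicate 2). Single genes turned round as follows. Nr1d1 H3K4me1 bases, KO minus WT, were -44.5 at −log10 q of at least 5, -340.5 with 2 kb flanks and from -191.5 (without WT replicate 2) to 447.5 with 1 library left out. Those of Per2 ran from -1231.5 to 28.5 and those of Dbp from -3.5 to 273.5, each turned round without WT replicate 1. For peaks within 50 kb, Cry2 was -0.5 and Nr1d2 1.0 at 100 kb, Per1 was 0.5 and Per2 -0.5 at −log10 q of at least 5, and Per2 ran from -0.5 (without KO replicate 2) to 1.5. The cause of these shifts was not tested. The deviations of same-numbered KO and WT libraries, and not their values, had correlations over genes of -0.02 for H3K4me3 and 0.21 for H3K4me1. With 2 pairs the numbers were not shown to pair libraries. A replicate block leaves the differences as they are, so the medians stayed at -1621, 64.0 and 0.25 by construction. The smallest possible p with this block was 0.5. WT replicate 1 was the deepest H3K4me3 library; WT replicate 2 held 6185767 fragments against 5519477 and 5938102 in KO libraries, and without WT replicate 1 the median H3K4me3 difference was -1377. MLL4 counts near the genes were 0 in all windows tried, from lists of 40 to 69 peaks, and why those lists are short was not tested.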
